A study of Saccharomyces cerevisiae with 18 samples.

Results

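The genes described here are 10 open reading frames (ORFs) of budding yeast (Saccharomyces cerevisiae) that act in glycogen and trehalose metabolism, out of 6606 ORFs in the deposited table. They were chosen by name: IGD1 (YFR017C), the trehalose-synthesis genes TPS1 (YBR126C), TPS2 (YDR074W), TPS3 (YMR261C) and TSL1 (YML100W), the trehalase gene NTH1 (YDR001C), the glycogen synthase genes GSY1 (YFR015C) and GSY2 (YLR258W), and the glycogen breakdown genes GPH1 (YPR160W) and GDB1 (YPR184W). All 10 were found, and 8 of them, all but NTH1 and GDB1, passed the filter on low counts that 2856 ORFs passed. The set was proposed with measured values of these libraries known and is named for IGD1, so the values of IGD1 are given as a description with no test.

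The study concerned gene position and expression, and it compared poly-A RNA of 4 heterozygous diploid strains with that of a wild-type. In each heterozygote 1 of the 2 copies of a chromosome I gene was replaced: FUN14 (YAL008W, a mitochondrial membrane protein), FUN26 (YAL022C, a nucleoside transporter of the vacuole), GIP4 (YAL031C, a protein that binds the phosphatase Glc7) or SEO1 (YAL067C, a putative permease). Each heterozygote had 3 libraries and the wild-type had 6. All cultures were in log-phase growth at 30 °C, between optical densities of 0.2 and 1.0, on the rich glucose medium YPD and with no drug. The labels give BY4741, a haploid strain of a mating type, as the background of all 5 groups, the series text calls the wild-type diploid, and the wild-type columns carry the name of the diploid BY4743.

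Glycogen, a branched polymer of glucose, and trehalose, a disaccharide of glucose, are the storage carbohydrates of yeast, and both draw on UDP-glucose. Their genes are known to be expressed at a low level in cells growing fast on glucose and to be induced when glucose runs out or under stress, in part through the factors Msn2 and Msn4, which bind the stress response element AGGGG. Tps1 makes trehalose-6-phosphate, Tps2 removes its phosphate, Tps3 and Tsl1 are regulatory subunits of the same complex, and Nth1 hydrolyses trehalose in the cytosol. Gsy1 and Gsy2 are glycogen synthases, Gph1 is glycogen phosphorylase, Gdb1 is the debranching enzyme and Igd1 is an inhibitor of Gdb1.

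Each count is taken over the final 200 bases of an ORF, so levels of different genes are compared over windows of equal length. The windows differ in base composition, and the way the genes varied across libraries ran with it. The windows of IGD1 (chrVI:182274-182473, minus strand) and GSY2 (chrXII:662634-662833, plus strand) have the highest GC content of the set, at 47.0% and 46.5%. TPS1 (chrII:488905-489104, minus strand) and TPS3 (chrXIII:790205-790404, minus strand) lie near its low end, at 40.0% and 37.0%. These 4 windows are shown 5′ to 3′ on the coding strand, from RefSeq assembly R64, with every G and C in capitals.
IGD1: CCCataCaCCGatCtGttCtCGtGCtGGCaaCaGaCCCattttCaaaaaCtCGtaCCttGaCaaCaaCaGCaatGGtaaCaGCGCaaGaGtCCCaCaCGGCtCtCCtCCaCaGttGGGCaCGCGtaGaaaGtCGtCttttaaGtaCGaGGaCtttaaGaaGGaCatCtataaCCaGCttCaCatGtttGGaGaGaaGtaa
GSY2: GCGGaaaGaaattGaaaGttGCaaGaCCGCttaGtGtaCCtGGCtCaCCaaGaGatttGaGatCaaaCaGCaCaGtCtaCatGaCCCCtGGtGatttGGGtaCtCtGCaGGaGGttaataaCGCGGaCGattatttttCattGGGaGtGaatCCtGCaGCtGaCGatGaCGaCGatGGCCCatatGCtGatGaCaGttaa
TPS1: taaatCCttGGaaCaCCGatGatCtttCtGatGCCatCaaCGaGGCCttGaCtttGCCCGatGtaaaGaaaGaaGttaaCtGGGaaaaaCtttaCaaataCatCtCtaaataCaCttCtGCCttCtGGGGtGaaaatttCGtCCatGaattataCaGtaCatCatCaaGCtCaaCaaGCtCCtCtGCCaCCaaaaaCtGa
TPS3: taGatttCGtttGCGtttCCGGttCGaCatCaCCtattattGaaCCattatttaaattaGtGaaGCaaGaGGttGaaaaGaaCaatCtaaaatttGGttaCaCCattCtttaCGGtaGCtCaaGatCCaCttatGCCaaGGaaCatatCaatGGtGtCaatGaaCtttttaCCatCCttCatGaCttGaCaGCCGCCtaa
The median GC content of the windows of tested ORFs was 41.5%. Between them came GPH1 at 45.0%, TPS2 at 44.0%, GSY1 and NTH1 at 42.5% each, TSL1 at 39.0% and GDB1 at 38.0%. GSY1 and GSY2, which arose as a duplicate pair, shared 62.7% of aligned bases in their windows, with a longest identical run of 9 bases. TPS3 and TSL1, the other related pair, shared 66.8%, with a longest run of 11 bases. In the deposited table, whose genome build is not given in the sources used here, IGD1 spans 182262 to 182849 on chromosome 6, and GSY1 spans 174257 to 176383 on the same chromosome.

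The 300 bases before the start codon were searched for the stress response element AGGGG on both strands. Of the 10 genes, 7 held it, against 22.2% of the 6020 such regions in R64 and 24.6% of those of tested ORFs. TPS1 and TSL1 held 3 matches each, IGD1 and TPS3 held 2 each, and GSY2, NTH1 and GDB1 held 1 each. TPS2, GSY1 and GPH1 had no such letters in this window. AGGGAT was found in 1 gene, TPS2, against 9.2% of all such regions, and GAANNTTC, the core of the heat shock element, in 0 of 10, against 11.5%. The regions of 4 genes whose levels moved together in pairs, IGD1 with GSY2 and TPS1 with TSL1, are shown 5′ to 3′ on the coding strand, ending at the base before the start codon. Capitals mark AGGGG or, where the match is on the other strand, CCCCT. The regions are chrVI:182862-183161 (minus strand) for IGD1, chrXII:660416-660715 (plus strand) for GSY2, chrII:490393-490692 (minus strand) for TPS1 and chrXIII:70324-70623 (plus strand) for TSL1.
IGD1: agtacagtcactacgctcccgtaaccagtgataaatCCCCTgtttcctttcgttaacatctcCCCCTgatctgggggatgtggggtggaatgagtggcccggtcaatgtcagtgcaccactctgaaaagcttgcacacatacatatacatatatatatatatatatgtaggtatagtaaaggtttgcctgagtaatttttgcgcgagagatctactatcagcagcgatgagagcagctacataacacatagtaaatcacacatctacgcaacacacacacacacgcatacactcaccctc
GSY2: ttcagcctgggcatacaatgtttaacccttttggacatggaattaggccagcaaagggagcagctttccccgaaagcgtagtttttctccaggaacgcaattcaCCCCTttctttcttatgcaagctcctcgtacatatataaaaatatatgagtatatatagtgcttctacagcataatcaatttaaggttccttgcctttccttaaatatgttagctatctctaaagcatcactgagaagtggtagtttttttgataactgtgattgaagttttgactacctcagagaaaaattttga
TPS1: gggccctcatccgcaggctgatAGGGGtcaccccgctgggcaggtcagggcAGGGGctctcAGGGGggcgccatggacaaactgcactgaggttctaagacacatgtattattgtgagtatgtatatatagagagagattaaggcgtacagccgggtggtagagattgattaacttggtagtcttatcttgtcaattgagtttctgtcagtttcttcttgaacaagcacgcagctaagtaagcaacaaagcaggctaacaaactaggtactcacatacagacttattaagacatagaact
TSL1: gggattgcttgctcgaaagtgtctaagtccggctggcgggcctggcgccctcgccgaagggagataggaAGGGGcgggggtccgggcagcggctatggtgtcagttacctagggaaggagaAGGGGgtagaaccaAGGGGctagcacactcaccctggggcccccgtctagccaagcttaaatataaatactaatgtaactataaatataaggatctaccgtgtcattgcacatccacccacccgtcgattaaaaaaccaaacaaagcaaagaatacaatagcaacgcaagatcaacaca
Counted back from the start codon, the matches begin at bases -264 and -238 in IGD1, -196 in GSY2, -278, -249 and -239 in TPS1, and -231, -179 and -165 in TSL1. The region before IGD1 takes in 31 bases of the neighbouring ORF YFR018C. A match is a description of the letters and not of a bound site.

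Library totals ran from 52293.5 to 132618 counts, and 1 count was worth 7.596 to 21.74 counts per 1e6 (CPM). CPM is scaled here to the library size adjusted by trimmed means (TMM). The difference between replicates 1 and 2 of wild-type was less than sampling noise, and they count as 1 sample, so wild-type has n = 5. Wild-type replicate 3 and replicate 1 of the SEO1 heterozygote stood apart from the other libraries of their groups over all genes, and values without them are given where they matter. Of the replaced genes, FUN14 had 164 ± 28.7 CPM in its own heterozygote and 312 ± 48.9 CPM in wild-type (SD, n = 3 and 5). FUN26 and GIP4 likewise had lower means in their own strains, while SEO1 had 0 counts in all 12 heterozygote libraries, its own 3 included, and 3.5 in the wild-type libraries together, so it says nothing of its own replacement. The summed level of 6 a-specific genes was 83.5 ± 50.5 CPM in the heterozygotes and 1220 ± 248 CPM in wild-type (SD, n = 12 and 5). The sum of 11 haploid-specific genes was 143 ± 58.1 CPM in the heterozygotes and 1420 ± 223 CPM in wild-type. Ploidy or mating type and the gene replacement therefore cannot be told apart in any comparison with wild-type. Comparisons of 1 heterozygote with the others do not have this limit.

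Averaged over the 17 libraries, IGD1 and GSY2 had the highest levels of the set, 541 and 530 CPM, at percentiles of 79.9 and 79.6 among tested ORFs. TPS1 followed with 358 CPM and TPS2 with 220 CPM, near the median of 211 CPM. GPH1, TSL1, GSY1 and TPS3 averaged 113, 109, 101 and 87.9 CPM, at percentiles of 23.2 down to 11.4. NTH1 and GDB1, at 34.6 and 15.8 CPM, had 1 to 7 and 0 to 4 counts in a library. IGD1 also had the widest range, 3.53 on the log2 scale, and TPS1 the narrowest of the tested genes, 1.80.

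**Figure D1:**
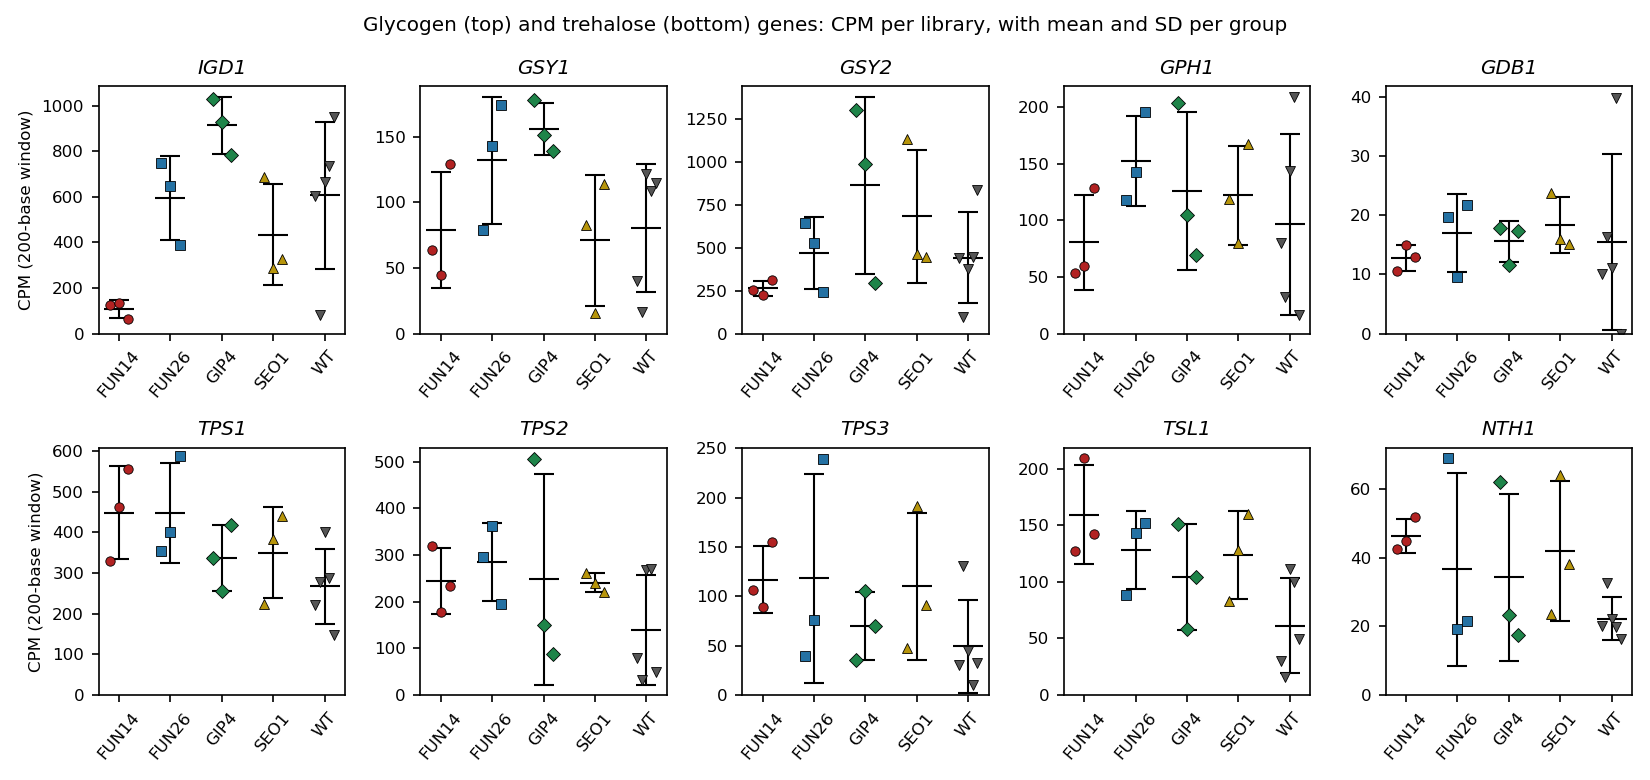
Level of each of the 10 genes in CPM over the last 200 bases of its ORF (y axis, linear, a different scale in each panel) in the heterozygotes of FUN14, FUN26, GIP4 and SEO1 (n = 3 each) and in wild-type (WT, n = 5). Points are libraries, with bars for the mean and SD. The 3 FUN14 libraries sit at 64.7 to 134 CPM for IGD1, below the other 9 heterozygote libraries.

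IGD1 differed most between strains. In the FUN14 heterozygote it had 127, 134 and 64.7 CPM. The FUN26 heterozygote had 749, 649 and 391 CPM, the GIP4 heterozygote 1030, 929 and 783 CPM, and the SEO1 heterozygote 688, 288 and 327 CPM. In wild-type it had 602 CPM in the averaged replicates 1 and 2, 81.7 in replicate 3, 667 in replicate 4, 736 in replicate 5 and 952 in replicate 6. The FUN14 libraries were thus all below the other heterozygote libraries and the GIP4 libraries all above them, while 1 wild-type library lay as low as the FUN14 ones.

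As group means, IGD1 was 109 ± 38.3 CPM in the FUN14 heterozygote and 648 ± 263 CPM in the other 3 heterozygotes together (SD, n = 3 and 9), a log2 difference of -2.50 ± 0.52 (SE). Against wild-type, at 608 ± 322 CPM, the difference was -2.47 ± 0.54, and it was -2.71 without wild-type replicate 3. The GIP4 heterozygote, at 914 ± 124 CPM, was above the other heterozygotes, at 380 ± 259 CPM, by 1.58 ± 0.39. In raw counts the FUN14 libraries held 5 to 11.5 and the GIP4 libraries 45 to 115.5. Of all tested ORFs, 1.54% had every FUN14 library below the other heterozygotes and 1.37% had every GIP4 library above them. Since IGD1 was chosen from these data, nothing is read from its place among those ORFs.

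Set against TPS1 within the same library, which removes the library scaling, log2 IGD1 minus log2 TPS1 averaged -1.83 ± 0.75 in the FUN14 heterozygote, 0.39 ± 0.83 in the FUN26 heterozygote, 1.39 ± 0.48 in the GIP4 heterozygote, 0.24 ± 1.10 in the SEO1 heterozygote and 0.88 ± 1.44 in wild-type (SD, n = 3 each and 5). The FUN14 libraries, from -2.68 to -1.24, held less IGD1 than TPS1 and the GIP4 libraries, from 0.85 to 1.77, held more. Library differences other than scaling remain in this value. IGD1 and TPS1 correlated in opposite directions, at r = 0.86 and -0.60, with the library score described below. Subtracting TPS1 therefore does not remove the part that runs with this score but enlarges it.

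GSY2, the more abundant of the glycogen synthases, followed a similar order at a smaller scale. It had 255, 224 and 311 CPM in the FUN14 heterozygote, 641, 525 and 239 CPM in the FUN26 heterozygote, 1300, 988 and 296 CPM in the GIP4 heterozygote and 1130, 464 and 448 CPM in the SEO1 heterozygote. Wild-type had 441, 98.0, 378, 448 and 837 CPM, with replicate 3 the lowest of all 17 libraries. The groups overlapped, except that every FUN14 library was below every SEO1 library. The share of tested ORFs with that pattern was not counted, so nothing is read from it. The FUN14 heterozygote averaged 263 ± 44.1 CPM and the other heterozygotes 669 ± 378 CPM (SD, n = 3 and 9). Their log2 difference was -1.32 ± 0.50, with an unadjusted p of 0.0159 and an adjusted p of 0.291 (edgeR). The GIP4 heterozygote was 0.98 ± 0.42 above the others (unadjusted p = 0.0306, adjusted p = 0.235, edgeR), and this value ran from 0.52 to 1.39 when single libraries were left out. Without replicate 1 of the SEO1 heterozygote the adjusted p was 0.0471, in a fit where 12.6% of tested ORFs, 389 of 3090, passed the threshold. The highest GSY2 count, 146, is close to the ceiling of 201 in the table, where counts are compressed.

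GSY1 was lower in all groups, and its levels ran the same way only in part. It averaged 79.3 ± 44.4 CPM in the FUN14 heterozygote, 132 ± 48.5 in the FUN26 heterozygote, 156 ± 19.6 in the GIP4 heterozygote, 71.0 ± 50.1 in the SEO1 heterozygote and 80.6 ± 48.8 in wild-type. The 3 GIP4 libraries, at 178, 151 and 139 CPM, were all above the wild-type libraries, which reached 122 CPM; 1.44% of tested ORFs showed this pattern. The log2 difference was 0.93 ± 0.52 (adjusted p = 0.942, edgeR). GSY2 made up 78.0 ± 6.61% of the summed synthase level in the FUN14 heterozygote, 75.2 ± 15.8% in the FUN26 heterozygote, 80.9 ± 11.2% in the GIP4 heterozygote, 89.8 ± 8.94% in the SEO1 heterozygote and 84.2 ± 6.35% in wild-type, shares that overlapped throughout.

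The trehalose-synthesis genes had higher mean levels in all 4 heterozygotes than in wild-type, and none passed the threshold in the fit reported here. TPS1 averaged 449 ± 114 CPM in the FUN14 heterozygote, 448 ± 123 in the FUN26 heterozygote, 337 ± 81.0 in the GIP4 heterozygote, 350 ± 112 in the SEO1 heterozygote and 267 ± 93.0 in wild-type. By library, the 12 heterozygote values ran from 225 to 587 CPM with a median of 392 CPM, and the wild-type values were 221, 278, 400, 289 and 148 CPM. The groups overlapped, and the wild-type values of 221 and 148 CPM were below every heterozygote library. The mean of the heterozygotes exceeded wild-type by 0.53 ± 0.25 on the log2 scale (unadjusted p = 0.0456, adjusted p = 0.719, edgeR).

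TSL1, a regulatory subunit, had 127, 209 and 142 CPM in the FUN14 heterozygote, 88.7, 143 and 152 in the FUN26 heterozygote, 151, 58.1 and 104 in the GIP4 heterozygote, and 83.0, 128 and 160 in the SEO1 heterozygote. Wild-type had 30.1, 16.3, 111, 99.5 and 49.2 CPM. Every FUN14 library was above every wild-type library, a pattern that 4.73% of tested ORFs showed, while the other heterozygotes overlapped with wild-type. The FUN14 heterozygote exceeded wild-type by 1.29 ± 0.48 (unadjusted p = 0.0147, adjusted p = 0.200, edgeR), and the mean of the 4 heterozygotes exceeded it by 0.98 ± 0.38 (unadjusted p = 0.0175, adjusted p = 0.624, edgeR). With only replicates 1 to 3 of every group, these values were 2.53 and 2.22 (adjusted p = 0.0303 and 0.0287, edgeR). That fit counted replicates 1 and 2 of wild-type separately although they did not differ beyond sampling noise. It left out wild-type replicates 4 to 6, at 111, 99.5 and 49.2 CPM. The wild-type libraries it kept were those at 30.1 CPM (replicates 1 and 2 averaged) and 16.3 CPM (replicate 3).

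TPS2, the phosphatase, averaged 243 ± 70.4 CPM in the FUN14 heterozygote, 285 ± 84.1 in the FUN26 heterozygote, 248 ± 226 in the GIP4 heterozygote, 240 ± 20.3 in the SEO1 heterozygote and 139 ± 118 in wild-type. The spread in the GIP4 heterozygote came from libraries at 506, 151 and 87.0 CPM. Wild-type fell into 2 levels, with 267 and 269 CPM in replicates 4 and 5 and 32.7 to 80.2 CPM in the rest. TPS3, the other regulatory subunit, averaged 117 ± 34.2 CPM in the FUN14 heterozygote, 118 ± 106 in the FUN26 heterozygote, 69.9 ± 34.5 in the GIP4 heterozygote, 110 ± 74.1 in the SEO1 heterozygote and 49.6 ± 47.0 in wild-type. Replicate 3 carried 131 CPM of TPS3, against 9.95 to 44.4 CPM in the other wild-type libraries, which averaged 29.3 ± 14.3 CPM (n = 4). The heterozygotes exceeded wild-type on average by 0.82 ± 0.43 for TPS2 and 1.06 ± 0.54 for TPS3, and the second value was 1.72 without wild-type replicate 3 (adjusted p = 0.254, edgeR). With only replicates 1 to 3 of every group the TPS2 value was 2.01 (adjusted p = 0.0753, edgeR). That fit left out wild-type replicates 4 and 5, the libraries at 267 and 269 CPM. It also counted replicates 1 and 2 of wild-type separately although they did not differ beyond sampling noise. For TPS2 in the GIP4 heterozygote the direction rested on 1 library: its difference from wild-type ran from -0.29 to 1.22 with single libraries left out, and the lowest value came without replicate 1 of the GIP4 heterozygote.

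Summed over TPS1, TPS2, TPS3 and TSL1, the level was 970 ± 108 CPM in the FUN14 heterozygote, 977 ± 196 in the FUN26 heterozygote, 759 ± 241 in the GIP4 heterozygote, 824 ± 181 in the SEO1 heterozygote and 517 ± 224 in wild-type. The synthases GSY1 and GSY2 summed to 342 ± 88.3 CPM in the FUN14 heterozygote, 600 ± 164 in the FUN26 heterozygote, 1020 ± 529 in the GIP4 heterozygote, 751 ± 400 in the SEO1 heterozygote and 521 ± 298 in wild-type. By these means the FUN14 heterozygote was near the top for trehalose synthesis and at the bottom for glycogen synthesis. The GIP4 heterozygote lay the other way round among the heterozygotes. The FUN14 and GIP4 libraries overlapped in both sums, at 881 to 1090 and 569 to 1030 CPM for trehalose synthesis, and 268 to 440 and 435 to 1470 CPM for glycogen synthesis. The sums were not tested. In the F test among heterozygotes (edgeR), the unadjusted p was 0.566 for TPS1, 0.968 for TPS2, 0.751 for TPS3, 0.75 for TSL1, 0.261 for GSY1 and 0.0417 for GSY2. The adjusted p of GSY2 was 0.482, and 287 of 2856 tested ORFs had an unadjusted p under 0.05 in this test. In bulk poly-A RNA, fewer cells that express a gene and less RNA per cell cannot be told apart.

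Among the breakdown genes, GPH1 averaged 80.7 ± 42.3 CPM in the FUN14 heterozygote, 152 ± 39.5 in the FUN26 heterozygote, 126 ± 69.8 in the GIP4 heterozygote, 122 ± 43.7 in the SEO1 heterozygote and 96.5 ± 80.1 in wild-type. Its libraries overlapped between all groups, and the FUN14 heterozygote minus the others was -0.74 ± 0.54 (adjusted p = 0.578, edgeR). NTH1 had 4, 3 and 4 counts in the FUN14 libraries and 1 or 2 in the wild-type libraries, which is 46.3 ± 4.85 CPM against 22.3 ± 6.18 CPM. The other heterozygotes had 1 to 7 counts, and NTH1 was too low to be tested. GDB1, the target of Igd1, had 1 or 2 counts in every heterozygote library and 0 to 4 in wild-type. It averaged 12.8 ± 2.15 CPM in the FUN14 heterozygote, 15.6 ± 3.44 in the GIP4 heterozygote and 15.5 ± 14.8 in wild-type, so no difference was detectable at this depth.

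GPH1 also holds 2 annotated ORFs inside its own, each with a window of its own. YPR160W-A lies on the same strand (861930 to 862010 on chromosome 16 in the deposited table) and YPR160C-A on the other strand (862573 to 862857). YPR160W-A averaged 265 ± 143 CPM in the FUN14 heterozygote, 505 ± 326 in the FUN26 heterozygote, 768 ± 304 in the GIP4 heterozygote, 485 ± 65.3 in the SEO1 heterozygote and 422 ± 245 in wild-type. These levels are several times those of the GPH1 window itself and, unlike it, are at their highest in the GIP4 heterozygote. The FUN14 heterozygote minus the others was -1.11 ± 0.51 (unadjusted p = 0.0438, adjusted p = 0.356, edgeR). Across the 17 libraries the GPH1 window correlated with YPR160W-A at r = 0.36 (rho = 0.43, permutation p = 0.15 and 0.085) and with YPR160C-A at r = 0.44 (rho = 0.44, permutation p = 0.074 and 0.078). Adjusted over the 3 pairs of these windows, the p values were 0.15 and 0.13 for the first and 0.11 and 0.13 for the second. Without the 2 libraries farthest from the median, r was 0.22 and 0.25. The YPR160W-A count reached 126 although that ORF has 81 bases, and how windows of short ORFs were counted is not given in the sources used here.

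**Figure D2:**
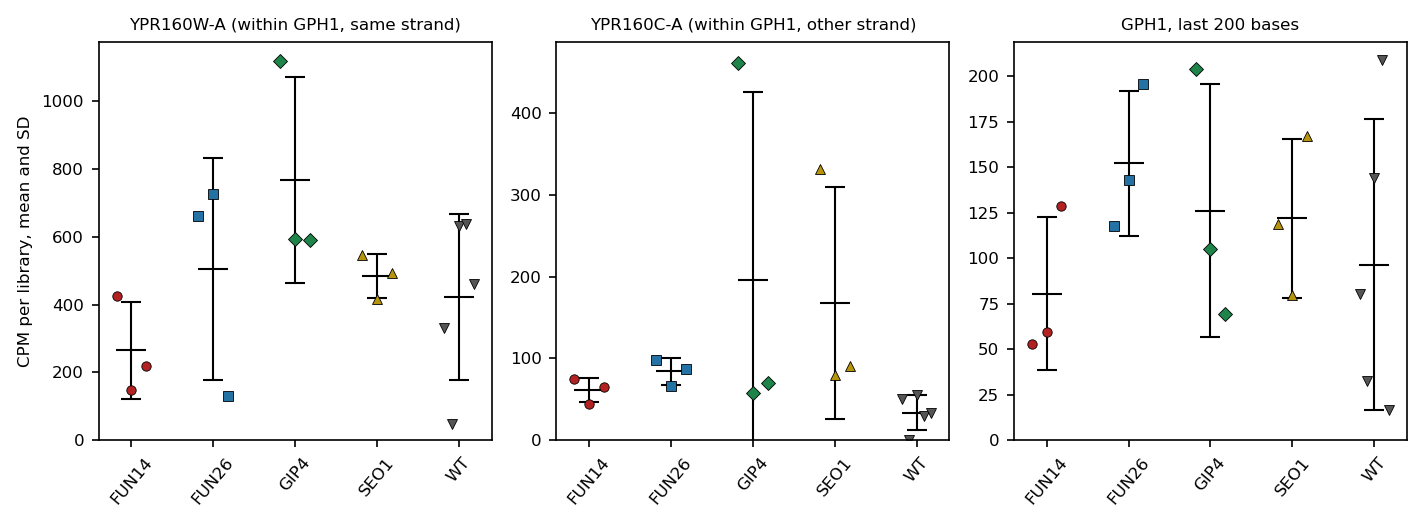
Level in CPM (y axis, linear, a different scale in each panel) of the windows of YPR160W-A and YPR160C-A, which lie inside GPH1, and of the GPH1 window at the end of the ORF, in the heterozygotes (n = 3 each) and wild-type (WT, n = 5). Points are libraries and bars the mean and SD. YPR160W-A runs from 265 CPM in the FUN14 heterozygote to 768 CPM in the GIP4 heterozygote, while GPH1 spans only 80.7 to 152 CPM.

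IGD1, chosen from these values, is left out of the counts that follow, which are of the other 7 tested genes. Some edgeR fits on part of the libraries called GSY2, TSL1 or TPS2, as given where those fits are described. With all 17 libraries, in none of the 10 comparisons did edgeR or DESeq2 put any of the 7 past an adjusted p of 0.05. In edgeR the share of all tested ORFs that did was 0.315% for the FUN14, 0.210% for the FUN26, 0.280% for the GIP4 and 0.140% for the SEO1 heterozygote minus wild-type. It was 0.385% for the mean of the 4 heterozygotes minus wild-type, and 0% for each heterozygote minus the others and for the F test among heterozygotes. In DESeq2 the shares against wild-type were 1.68% for FUN14, 0.21% for FUN26, 0.35% for GIP4, 0.245% for SEO1 and 0.42% for the mean. FUN14 minus the others had 0.831% there and the F test 0.07%, while FUN26, GIP4 and SEO1 minus the others had 0%. At an unadjusted p under 0.05 in edgeR, 2 of the 7 genes, TPS1 and TSL1, were higher in the FUN14 heterozygote than in wild-type. Of all 2856 tested ORFs 16.7% differed there in either direction, and 136 were higher. The counts were 1 of 7, TPS1, for FUN26 against a background of 4.34% (72 ORFs higher), 0 for GIP4 against 4.83% and 0 for SEO1 against 3.92%. For the mean of the 4 heterozygotes they were 2 of 7, TPS1 and TSL1, both higher, against 6.48% (90 ORFs higher). In the FUN14 heterozygote minus the others it was 1 of 7, GSY2, which was lower, against 13.4% (297 ORFs lower). In the GIP4 heterozygote minus the others it was GSY2 alone, which was higher, against 18.3% (374 ORFs higher). None of the 7 differed at that level in the FUN26 or SEO1 heterozygote minus the others, with backgrounds of 1.37% and 2.07%.

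Over the same 7 genes the median log2 difference from wild-type was 0.73 in the FUN14, 0.70 in the FUN26, 0.72 in the GIP4 and 0.63 in the SEO1 heterozygote. Over all tested ORFs these medians were -0.03, -0.05, 0.03 and 0.01. For the mean of the heterozygotes all 7 were positive, against 1261 of 2856 tested ORFs. The median was 0.53 against -0.05 over all ORFs, while IGD1 was at -0.60 ± 0.32. These comparisons share the wild-type libraries, and some of the genes moved together, so neither the comparisons nor the genes are independent of each other.

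**Figure D3:**
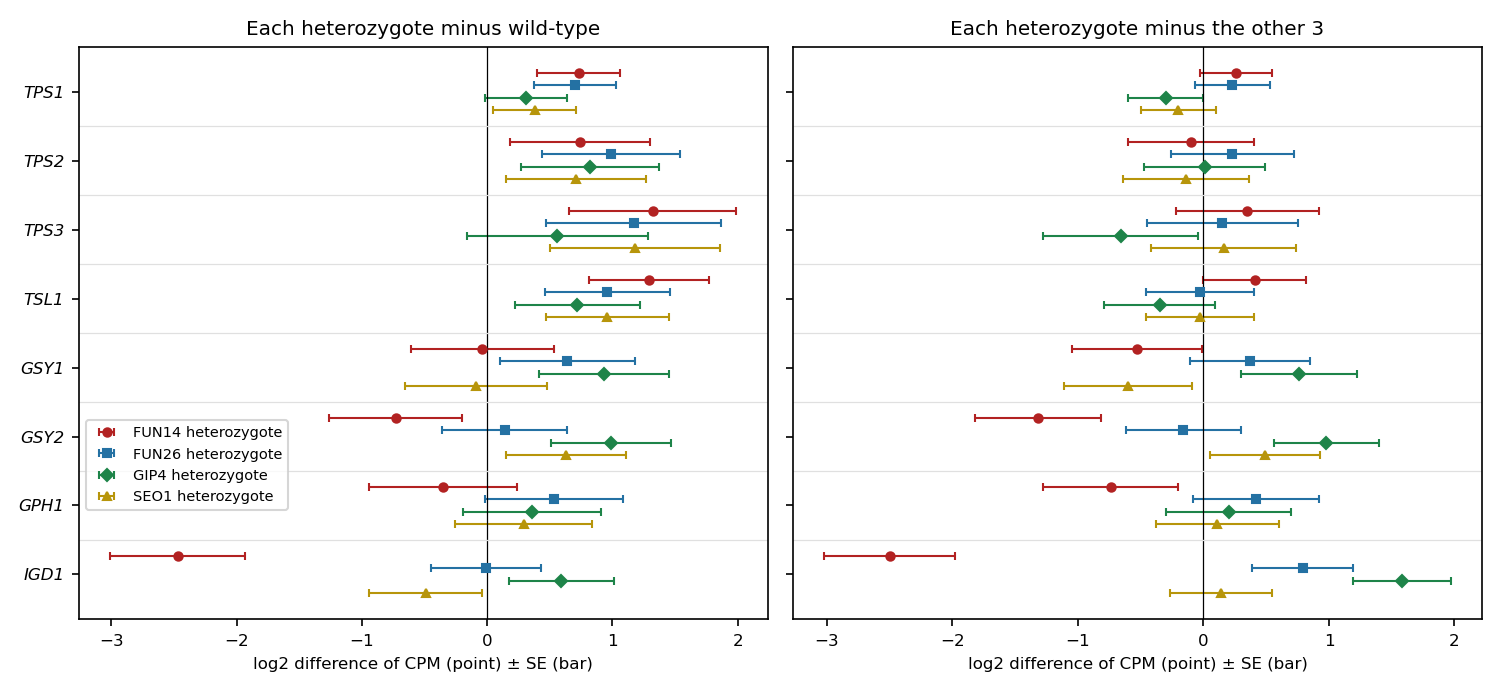
Log2 differences in CPM (x axis) for the 8 tested genes (y axis), for each heterozygote minus wild-type on the left and each heterozygote minus the other 3 on the right; points are the fitted values and bars their SE. On the left the TPS1, TPS2, TPS3 and TSL1 points all lie right of 0, and on both sides the FUN14 point of IGD1 lies near -2.5.

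Pairs of genes moved together to different degrees across the 17 libraries. Of the 28 pairs, TPS1 and TSL1 had the highest rho, with r = 0.75 and rho = 0.82 (permutation p = 0.00058 and 0.00011, adjusted over the 28 pairs 0.0081 and 0.0031). The r was 0.75 without the 2 libraries farthest from the TPS1 median and 0.59 after group means were removed. TPS2 and GPH1 had r = 0.69 and rho = 0.54 (permutation p = 0.0022 and 0.027, adjusted 0.018 and 0.15), falling to 0.43 without the 2 farthest libraries. TPS2 and TSL1 had r = 0.70 and rho = 0.39 (permutation p = 0.0026 and 0.13, adjusted 0.018 and 0.27), with 0.50 without those libraries. For IGD1, given as a description, r with GSY2 was 0.75 (rho = 0.74), 0.70 without the 2 farthest libraries and 0.80 within groups. IGD1 ran against TPS3, with r = -0.60 (rho = -0.62), -0.51 without the 2 farthest libraries and -0.73 within groups. The libraries share depth and base-composition differences, which enter all of these values.

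**Figure D4:**
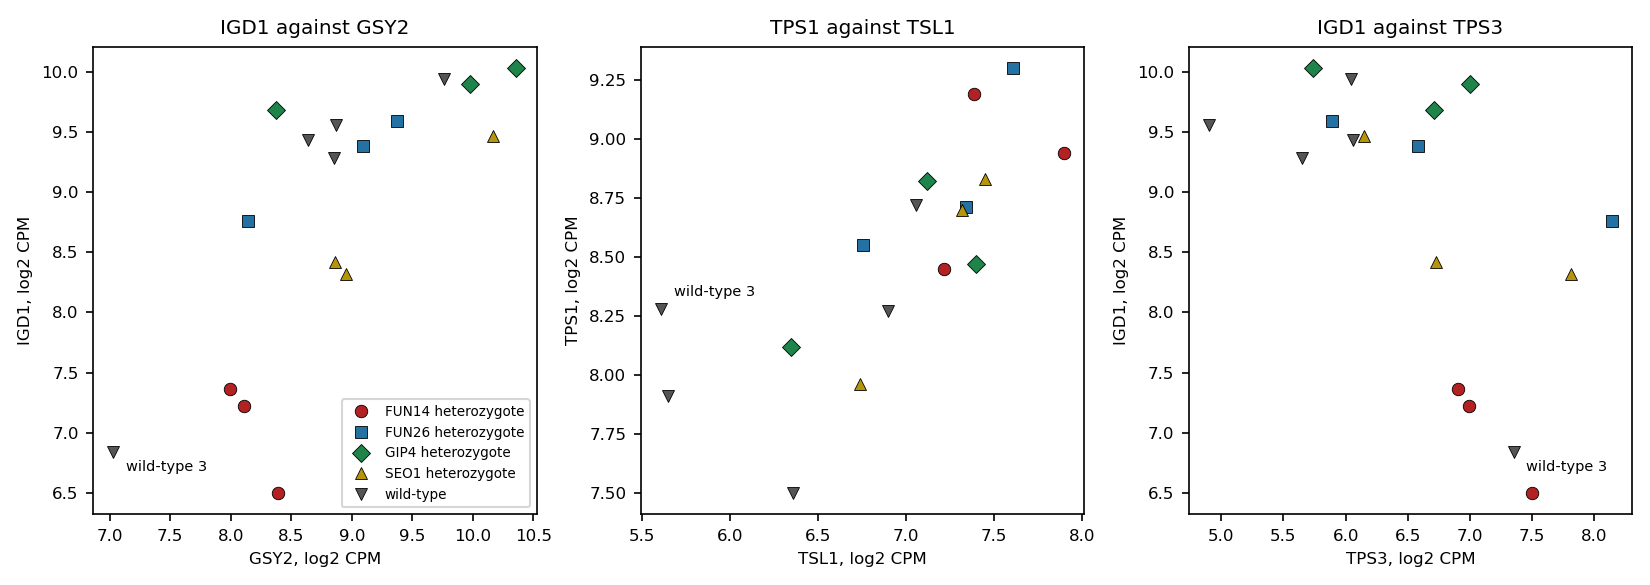
Log2 CPM of IGD1 against GSY2, TPS1 against TSL1 and IGD1 against TPS3 (y against x in each panel), 1 point per library, 17 in all, with groups by colour and shape and wild-type replicate 3 marked. IGD1 rises with GSY2 (r = 0.75) and falls with TPS3 (r = -0.60), and wild-type replicate 3 lies beside the FUN14 libraries for IGD1.

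Part of this pattern ran through the whole transcriptome. The first principal component of log2 CPM over tested ORFs took 44.0% of the variance. Its loadings tended to be higher at higher GC content of the window, but not over the whole range of GC content (Spearman 0.41, over the 91.1% of tested ORFs with a known GC content). Signed so that IGD1 is positive, the library scores were -15.1, -27.3 and -22.4 in the FUN14 heterozygote, 8.5, 5.5 and -11.9 in the FUN26 heterozygote, 32.3, 24.8 and 4.3 in the GIP4 heterozygote, 23.3, -25.4 and -25.8 in the SEO1 heterozygote, and 23.2, -35.0, 2.5, 18.5 and 20 in wild-type. Thus the FUN14 libraries and wild-type replicate 3, which were lowest for IGD1, lay at the low end, and 2 GIP4 libraries lay at the high end. Replicates 2 and 3 of the SEO1 heterozygote were as low on this score, yet had 288 and 327 CPM of IGD1, more than every FUN14 library. Over the 17 libraries IGD1 correlated with this score at r = 0.86 (rho = 0.83) and GSY2 at 0.80 (rho = 0.79). GSY1 had 0.43, GPH1 0.20, TPS2 0.13, TSL1 -0.31, TPS1 -0.60 and TPS3 -0.71. These are descriptions, since the genes themselves enter the score. Across the 8 genes that order followed the GC content of the windows, with a Spearman coefficient of 0.90: the windows richest in the capitals shown above, IGD1 and GSY2, had the highest values and TPS3 the lowest. The set ends at 47.0%, and windows richer in GC did not all follow this order. As examples, YLR390W at 49.0% had r = 0.97 with the score, while YAL020C at 56.5%, YKL198C at 61.0% and YKL086W at 64.5% had -0.46, -0.62 and -0.74. YLR316C and YLR091W, both at 51.5%, had 0.81 and 0.6.

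**Figure D5:**
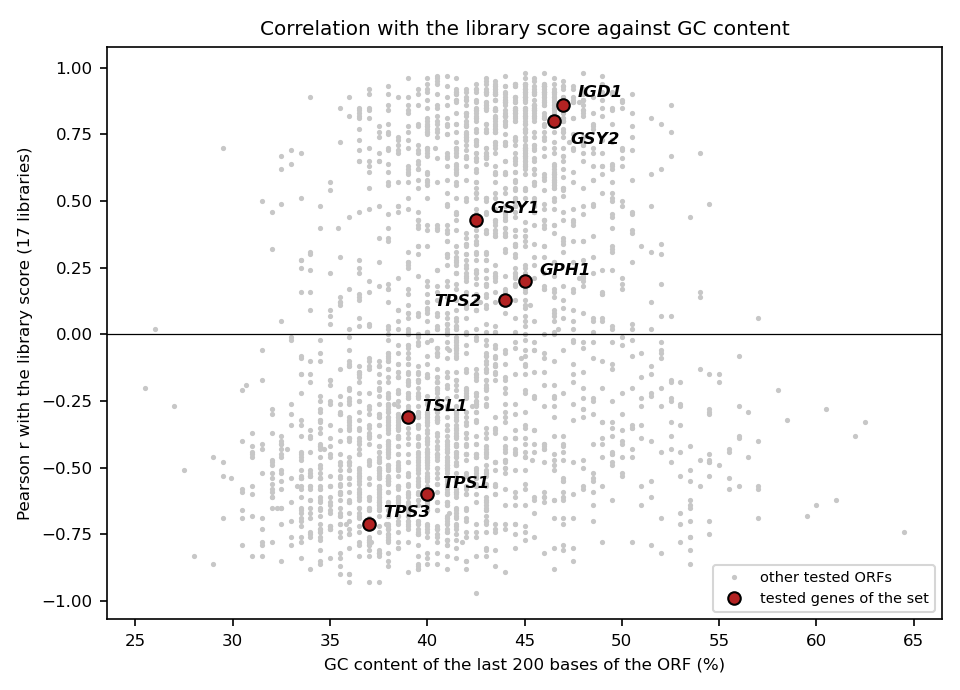
Pearson r of each tested ORF with the library score of the first principal component over 17 libraries (y axis) against the GC content of the last 200 bases of the ORF in percent (x axis). Red points are the 8 tested genes of the set and grey points the other ORFs. The set runs from TPS3 at 37.0% and r = -0.71 to IGD1 at 47.0% and r = 0.86.

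When the GC trend of each library was removed, a step added after the data were seen, the FUN14 heterozygote minus the others was -2.28 for IGD1 and -1.04 for GSY2, and the GIP4 heterozygote minus the others was 1.27 for IGD1 and 0.64 for GSY2. The directions held at a smaller size. The mean of the heterozygotes minus wild-type was 0.45 for TPS1, 0.85 for TPS2, 0.99 for TPS3 and 0.89 for TSL1 in the same fit. Whether base composition, the replaced gene or another property of the libraries underlies the spread of IGD1 and GSY2 was not tested.

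The other genes of the pathways gave no call in any comparison. Of 17 further glycogen genes 7 were tested, of 7 trehalose genes 3, of 6 genes of glucose phosphates and UDP-glucose 5, and of 13 upstream regulators 6. In the FUN14 heterozygote minus the others, 1 of the 7 glycogen genes was positive, against 1454 of 2856 tested ORFs. The median of these genes was -0.45 against 0.01 over all ORFs. In the GIP4 heterozygote minus the others 5 of the 7 were positive, against 1407 of 2856, with a median of 0.49 against -0.01. GIP2, a putative Glc7 partner, stood 2.17 ± 0.61 higher in the GIP4 heterozygote than in the others (unadjusted p = 0.00214, adjusted p = 0.170, edgeR). GLG1, the glycogenin that primes glycogen, was -1.48 ± 0.51 in the FUN14 heterozygote and 1.03 ± 0.42 in the GIP4 heterozygote, each against the others (adjusted p = 0.263 and 0.225, edgeR). HXK1, a hexokinase, gave -0.82 ± 0.30 and 1.00 ± 0.26 in the same comparisons (adjusted p = 0.280 and 0.170, edgeR), and HXK2, the main hexokinase on glucose, -0.62 ± 0.26 and 0.56 ± 0.24. GIP2, GLG1, HXK1 and HXK2 were named for small p-values in these same libraries. That choice favours large values, so nothing is read from their size. At an unadjusted p under 0.05 (edgeR), 1 of 7 glycogen genes and 2 of 5 glucose phosphate genes were lower in FUN14 minus the others, against 297 of 2856 tested ORFs. In GIP4 minus the others, 3 of 7 and 2 of 5 were higher, against 374 of 2856.

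Among the remaining named genes, PGM2, the phosphoglucomutase that links glucose-6-phosphate to UDP-glucose synthesis, was 0.81 ± 0.35 higher in the mean of the heterozygotes than in wild-type (unadjusted p = 0.0336, adjusted p = 0.705, edgeR). UGP1, which makes UDP-glucose, gave 0.31 ± 0.31. GLC7, the phosphatase that activates glycogen synthase, gave 0.47 ± 0.27, and GIP2 gave -0.90 ± 0.52. DCS2, a relative of the decapping enzyme gene DCS1, gave 0.67 ± 0.46, and BMH1, whose product binds Nth1, gave 0.18 ± 0.17. SNF4, a subunit of the Snf1 kinase, gave 0.95 ± 0.52, and TPK3, a catalytic subunit of protein kinase A, -0.56 ± 0.33. Among heterozygotes the smallest p of the F test were 0.156 for DCS2 and 0.227 for BMH2 of the trehalose genes, and 0.208 for SNF4 and 0.271 for YAK1 of the regulators.

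The genes whose log2 CPM was most like that of IGD1 over the 17 libraries, of 2855 compared, were YJR084W (r = 0.94), INP53 (0.93), DLD2 (0.93), SAM3 (0.93) and YGR115C (0.92), none of them a gene of the set. The closest to GSY2 was BDH2 (0.92), to TPS3 SES1 (0.90), to TSL1 CMK2 (0.88), to TPS1 CAB2 (0.84), to TPS2 FMP16 (0.84), to GSY1 NNR1 (0.82) and to GPH1 OCA2 (0.78). For all 8 genes the closest match was outside the set. The highest r within the set, 0.75, was below each of these. The set of 8 offers far fewer candidates than the 2855 compared, so nothing is read from this difference.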

How the data were processed

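The deposited table holds estimated counts of 6606 ORFs in 18 libraries, over the last 200 bases of each ORF per its name, and every value column was used. Bowtie 0.12.5 was among the tools, per the submitters' processing notes. Build, annotation and strand use are not given in the sources. Of the values, 93.0% were whole, 6.98% were other multiples of 0.5 and none exceeded 201, so strong genes are compressed. Replicates 1 and 2 of wild-type were averaged, since their difference was less than sampling noise (chi-square per ORF 0.969, p = 0.861 over 2513 ORFs; 2.07 to 9.46 in the other 14 wild-type pairs).

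Rounded counts entered the quasi-likelihood test of edgeR 4.0.16 under R 4.3.3 (TMM factors, filterByExpr with a minimum count of 10, 1 fit over 5 groups and 17 libraries). Each heterozygote was set against wild-type and against the other 3, the mean of the 4 against wild-type, and the 4 among themselves by an F test, with Benjamini-Hochberg adjustment over 2856 ORFs and a threshold of 0.05. Log2 CPM used a prior count of 2. Permutation p-values are two-sided with 100000 resamples. DESeq2 1.42.0, other scalings and filters, single libraries left out, a replicate block and a GC correction were alternatives. Nothing in the labels says that replicates were separate cultures, so the p-values reflect only the spread among libraries, possibly technical.

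The genes and lists were chosen with earlier results of these data known. Beyond the 10 genes, the text names, of each list, up to 2 with the smallest p of the F test and up to 2 with the smallest p of the mean of the heterozygotes minus wild-type, and the genes most like each tested gene by Pearson correlation. HXK1, HXK2, GLG1 and GIP2 are given in further contrasts. The GC-rich ORFs set against the library score are examples chosen by no rule. Symbols and sequences are RefSeq's, assembly R64. All 10 ORFs have the same length there as in the deposited table, and the coordinates differ for all but TSL1.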

Additional observations from a re-analysis of the deposited data

Results flagged for a closer look

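TPS3 in wild-type had 1 library far from the others. Replicate 3 held 131 CPM, against 9.95 to 44.4 CPM in the other 4 libraries, and the gap took 0.714 of the whole range against a critical value of 0.710. Chance flags about 1 in 20 groups, and 10 groups were looked at. Over all genes the same library also stood apart from the other wild-type libraries.

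For IGD1, every FUN14 library was below the mean of wild-type and every GIP4 library above it, with 109 CPM in the FUN14 heterozygote and 914 CPM in the GIP4 heterozygote, against 608 CPM in wild-type. For GSY2, every FUN14 library was below the wild-type mean and every SEO1 library above it, with 263 CPM in the FUN14 heterozygote and 679 CPM in the SEO1 heterozygote, against 440 CPM in wild-type. Without wild-type replicate 3 the wild-type mean of GSY2 was 526 CPM, above the SEO1 libraries at 464 and 448 CPM, so the SEO1 side of this pattern rests on that library. Neither difference between a pair of heterozygotes was tested. The comparisons share the wild-type libraries, and the library scores of the first principal component, which ran from -27.3 to -15.1 in the FUN14 heterozygote, moved with both genes. Their part in these differences was not tested.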

How the results depend on the processing

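Counts of calls below are of all tested ORFs at an adjusted p under 0.05, and the counts of called genes of the set refer to the 8 tested ones, of which none was called in the reported fit. Calls of IGD1 are counted only to show how the settings differ and are no test, since IGD1 was chosen from these data. Of 2200 recomputed log2 differences and F-test p-values of single genes of the set, 2109 stayed on their side of the threshold and within 1 SE of the reported difference, 62 moved by more than 1 SE without passing it and 29 newly passed it. None that passed changed sign, while 70 that passed no threshold did.

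For the FUN14 heterozygote minus wild-type, with 9 calls reported, DESeq2 gave 48, libraries 1 and 2 of wild-type kept separate gave 23, replicates 1 to 3 of every group without a block gave 30, and leaving out single libraries gave 2 to 175. The genes of the set called there were 1 with each of these settings, with relative log expression factors, with occupancy-corrected counts and with the GC correction, and 0 to 1 with single libraries left out. The called gene was IGD1, except with replicates 1 to 3 unblocked, where it was TSL1 (2.53, adjusted p = 0.0303, edgeR). That unblocked fit counted replicates 1 and 2 of wild-type separately and left out wild-type replicates 4 to 6. The 175 calls came without wild-type replicate 3.

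For the FUN26 heterozygote minus wild-type, with 6 calls, replicates 1 to 3 unblocked gave 14, and leaving out single libraries gave 1 to 7. The GIP4 heterozygote minus wild-type, with 8 calls, had 4 to 11 with single libraries left out. For the SEO1 heterozygote minus wild-type, with 4 calls, DESeq2 gave 7, no count filter 8, separate libraries 8, replicates 1 to 3 unblocked 7 and the GC correction 9, and leaving out single libraries gave 2 to 114. The mean of the 4 heterozygotes minus wild-type, with 11 calls, had 22 with no count filter, 30 with replicates 1 to 3 unblocked (1 of the set, TSL1), and 8 to 16 with single libraries left out.

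Against the other heterozygotes, where no ORF was called, FUN14 had 15 calls with DESeq2, 1 with heterozygote libraries alone and 1 with the GC correction, IGD1 among them each time (1 of the set), and 0 to 5 with single libraries left out (0 to 1 of the set). GIP4 had 0 to 389 with single libraries left out (0 to 2 of the set, IGD1 and, at an adjusted p of 0.0471, GSY2), with the 389 coming without replicate 1 of the SEO1 heterozygote. The F test had 2 calls with DESeq2 and 1 with heterozygote libraries alone (1 of the set each, IGD1), and 0 to 217 with single libraries left out (0 to 1 of the set), the 217 again without that SEO1 library. The cause of these moves was not tested.

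Replicate numbers were not taken to pair the libraries, since not every same-numbered pair correlated above 0.1. Deviations from group means correlated at -0.507 to 0.584 over 30 same-numbered pairs (median 0.237, 20 above 0.1) and at -0.679 to 0.642 over 60 differently numbered pairs (median -0.113, 15 above 0.1), so same-numbered libraries were on the whole more alike, but not every library correlated best with its own number. With a replicate block over replicates 1 to 3 of every group the calls were 146 for FUN14, 17 for FUN26, 14 for GIP4, 11 for SEO1 and 42 for the mean of the heterozygotes, each minus wild-type, and 2 for FUN14 minus the others, 96 for GIP4 minus the others and 2 in the F test. The called genes of the set under the block were 3 for FUN14 minus wild-type (IGD1, TPS2 and TSL1), 2 for the mean of the heterozygotes (TPS2 and TSL1; TSL1 2.50 and 2.20, adjusted p = 0.0174 and 0.0295, and TPS2 1.97 and 2.01, adjusted p = 0.0454 and 0.0363, in these 2 comparisons, edgeR), and 1, IGD1, for FUN14 minus the others, GIP4 minus the others and the F test. The block fit counted replicates 1 and 2 of wild-type separately although they did not differ beyond sampling noise. It also left out wild-type replicates 4 to 6, so the p-values under the block rest on few distinct wild-type libraries. In no other setting did a count of calls move by over 1.5 times. Depth limits NTH1, GDB1 and TPS3 most, where 1 count is 7.596 to 21.74 CPM.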
